A study of Mus musculus with 48 samples.

Results

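The comparison described here set wild-type (WT) mice given imipramine (IMN) against WT mice given vehicle, in RNA-sequencing libraries from punches of the amygdala. Its members were the 8 libraries labelled WT IMN and the 8 labelled WT vehicle, 16 of the 48 libraries of the series, chosen by their labels alone. The other 32 libraries came from WT mice given fluoxetine (FLX) and from Brd1+/- mice given vehicle, IMN or FLX. All mice were females of 8 to 11 weeks on a C57BL/6NTac background, and the WT mice were littermates of mice with a deletion in 1 copy of Brd1, a gene for a chromatin-associated bromodomain protein. Per the study's methods, IMN at 10 mg/kg or saline was injected subcutaneously on consecutive days. The first injection was followed by a tail suspension test and the second by an open field and a forced swim test, and brains were taken an hour after swimming. Both groups had therefore been handled, injected and forced to swim, and no library came from an untested mouse. The question put to these libraries is what an antidepressant does to amygdala transcripts when Brd1 is intact.

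Imipramine is a tricyclic antidepressant that blocks the serotonin and noradrenaline transporters and also binds histamine, muscarinic, adrenergic and serotonin receptors. The amygdala processes threat and stress, and in its neurons, as in other neurons, synaptic activity switches on immediate-early genes such as Fos, Egr1 and Npas4 within minutes. Their mRNAs are short-lived, so that their level follows recent stimulation. Stress also releases corticosterone, which acts through the glucocorticoid receptor to raise a further set of transcripts, among them Sgk1, Fkbp5 and Ddit4.

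The values were TPM, a measure of transcript abundance scaled by gene length and to a fixed library total. Each of the 16 libraries had between 24050 and 25611 genes above 0, and correlations between libraries on the log2 scale ran from 0.881 to 0.959. No pair was near identity. Neuronal transcripts were plentiful in both groups, with a summed TPM of 10 pan-neuronal genes of 2559 to 6051 in WT vehicle and 4410 to 5697 in WT IMN. The 7 genes of the amygdala regional list summed to 284 to 550 TPM in WT vehicle and 258 to 860 TPM in WT IMN, and none was absent from the test.

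The punches differed in what they held beside amygdala, and this was seen before any comparison. Choroid plexus RNA was concentrated in WT vehicle 1, where Ttr, which encodes transthyretin, had 28369 TPM, and in WT IMN 1, where it had 1193 TPM, against at most 51.5 TPM in the other 14 libraries. Striatal RNA marked WT vehicle 1 and 3 and WT IMN 2 and 8, with 121.8 to 305 TPM of the dopamine receptor gene Drd2 against at most 23.7 TPM elsewhere. The hypothalamic peptide genes Hcrt and Pmch reached 3878 and 5702 TPM in WT IMN 4 alone. Myelin RNA was highest in WT vehicle 1 and in WT IMN 3, 4 and 5, where Mbp, encoding myelin basic protein, lay between 1458 and 1959 TPM against at most 899 TPM in the others. Slc17a7, the vesicular glutamate transporter of cortical and basolateral neurons, spanned 6.56 to 1346 TPM in WT vehicle and 6.16 to 1246 TPM in WT IMN.

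**Figure D1:**
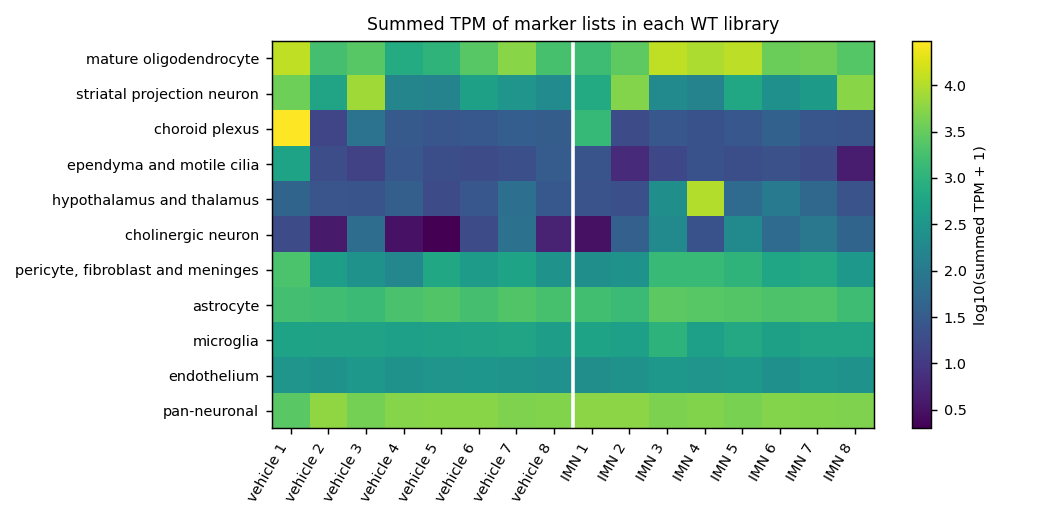
The map shows the summed TPM of 11 marker lists (rows) in the 8 WT vehicle and 8 WT IMN libraries (columns), as log10(sum + 1). The choroid plexus list reached 30135 TPM in vehicle 1, the hypothalamus and thalamus list 9885 TPM in IMN 4, and the mature oligodendrocyte list was at 9067 TPM or more in vehicle 1 and IMN 3, 4 and 5.

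As lists, the mature oligodendrocyte genes summed to 746 to 12167 TPM in WT vehicle, with a median of 2138 TPM, and to 1503 to 12035 TPM in WT IMN, with a median of 3639 TPM. All 12 members had a higher mean in WT IMN, with differences of 0.69 to 1.07 on the log2 scale, and 0 of the 12 had an unadjusted p under 0.05 in limma. Striatal projection neuron genes summed to 147 to 7704 TPM and 146 to 5450 TPM, and those of choroid plexus to 13.8 to 30135 TPM and 17.7 to 1274 TPM. The astrocyte, microglia and endothelium lists had median differences of 0.13, 0.16 and 0.01, with none of their 32 members at an unadjusted p under 0.05. In bulk tissue, fewer cells of a type and less RNA per cell cannot be told apart.

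Across 23644 genes tested with limma on log2(TPM + 0.1), 0 (0%) had a Benjamini-Hochberg adjusted p under 0.05, and the lowest adjusted p was 0.168. At an unadjusted p under 0.01 there were 189 genes (0.799%), where 1% of the genes tested is 236. At an unadjusted p under 0.05 there were 1084, of which 460 (1.95%) had a higher and 624 (2.64%) a lower mean in WT IMN, where 5% is 1182. The median log2 difference of all genes was -0.0024. For the 13375 protein-coding genes with at least 2 exons and at least 1 TPM, the 95% interval of the difference lay within -1 and 1 for 79.1% and within -0.5 and 0.5 for 48.3%. For the rest the interval reached beyond those bounds. The genes and groups that follow are described by their values, with no adjusted call for any of them. Brd1 itself had 35.6 ± 5.09 TPM in WT vehicle and 36.9 ± 2.83 TPM in WT IMN (mean ± SD, n = 8 each). The log2 difference was 0.06, with a 95% interval of -0.14 to 0.26 and an exact permutation p of 0.514. Both groups were labelled WT, so these values compare the groups and do not check the genotype labels.

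The immediate-early transcription factors had lower means in WT IMN than in WT vehicle. Of 18 tested, 17 had a lower and 1 a higher mean, 10 were lower and 0 higher at an unadjusted p under 0.05, and their median log2 difference was -0.98, beside 2.64% lower and a median of -0.0024 over all genes. These genes were among those for which results on the same data were already known when the list was drawn up, so that the count describes the list and is not independent evidence of its direction. Promoters of 3 members are shown because these had the lowest unadjusted p of the list. They are RefSeq sequences on GRCm38.p6 around the annotated start, 5′ to 3′ on the gene's strand, for Npas4 at chr19:4989922-4990221 (minus strand), Nr4a1 at chr15:101266596-101266895 (plus) and Fosl2 at chr5:32136222-32136521 (plus). Capitals mark TGACG, the core of the cAMP response element bound by CREB, on either strand.
Npas4: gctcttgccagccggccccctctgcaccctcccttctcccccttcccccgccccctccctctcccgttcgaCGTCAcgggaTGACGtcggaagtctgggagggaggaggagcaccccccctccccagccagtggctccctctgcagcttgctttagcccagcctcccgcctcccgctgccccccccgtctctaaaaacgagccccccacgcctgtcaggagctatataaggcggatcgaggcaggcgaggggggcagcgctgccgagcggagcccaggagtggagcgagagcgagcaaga
Nr4a1: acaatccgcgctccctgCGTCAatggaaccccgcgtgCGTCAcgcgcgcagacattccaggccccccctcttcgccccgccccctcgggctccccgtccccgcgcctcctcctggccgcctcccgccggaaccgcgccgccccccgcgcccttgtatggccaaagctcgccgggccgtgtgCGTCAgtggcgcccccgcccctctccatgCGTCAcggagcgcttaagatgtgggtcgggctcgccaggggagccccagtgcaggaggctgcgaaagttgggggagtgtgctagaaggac
Fosl2: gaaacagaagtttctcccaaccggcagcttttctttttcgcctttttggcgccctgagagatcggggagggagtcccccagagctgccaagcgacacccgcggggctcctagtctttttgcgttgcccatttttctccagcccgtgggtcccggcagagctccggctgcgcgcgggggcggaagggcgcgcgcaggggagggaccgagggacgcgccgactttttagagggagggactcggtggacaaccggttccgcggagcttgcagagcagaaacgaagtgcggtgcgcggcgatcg
The Npas4 promoter held 2 such pentamers, the Nr4a1 promoter 4 and the Fosl2 promoter 0. The palindrome TGACGTCA, which contains the pentamer, was in none of the 3. Of 18 promoter entries found for 14 genes of the list, 13 (72.2%) held TGACG on either strand, against 20.8% of all 32851 promoters of this length. The palindrome was in 0 of the 18 and in 1.79% of all, and the CArG box of serum response factor in 4, all from Egr2, and in 1.63% of all. A match is a string of letters and not a site shown to be bound.

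Egr1, a zinc-finger factor on chromosome 18 (34859823 to 34864984, GRCm38) that is widely used as a mark of neuronal activity, had 133.3, 144, 125.9, 117, 95.8, 123, 75.2 and 93.3 TPM in WT vehicle 1 to 8. In WT IMN 1 to 8 it had 107, 92.3, 18.2, 42.1, 36.4, 57.9, 51.6 and 94.1 TPM. All 8 IMN libraries were below the vehicle median, 5 were below the lowest vehicle library, and the 3 lowest were those richest in myelin RNA. The means were 113 ± 23.2 and 62.5 ± 31.9 TPM (SD, n = 8), and the log2 difference was -1.03 (95% interval -1.66 to -0.39) with an exact two-sided permutation p of 0.00451 and a limma adjusted p of 0.97 over all genes.

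Fos, which encodes a subunit of the AP-1 factor, had 26.4, 54.7, 5.79, 58.1, 49.2, 54.4, 51.6 and 47.3 TPM in WT vehicle 1 to 8. The IMN libraries had 31.4, 4.4, 23.6, 38.5, 20, 28.4, 23.8 and 13.1 TPM. Every IMN library was under the 6 vehicle libraries at 47.3 TPM or above, while WT vehicle 1 and 3, both with striatal RNA, lay within the IMN range. The log2 difference was -0.89 (95% interval -1.92 to 0.14), with an exact permutation p of 0.118. Without WT vehicle 3 it was -1.27 with an exact permutation p of 0.00171. Without the 4 libraries over 100 TPM of Drd2 it was -0.95 with an exact permutation p of 0.00216. That cut, chosen after seeing the data, took out WT vehicle 1 and 3, so that the groups left no longer overlapped. Its p is the smallest that the 6 and 6 libraries left can give, and is not separate evidence of a difference. Of the 16 fits leaving out 1 library, 1 had an unadjusted limma p under 0.05, and without WT IMN 2 the difference was -0.58 (exact permutation p = 0.235). Leaving out libraries over 1000 TPM of Mbp gave an exact permutation p of 0.126, and leaving out those over 1000 TPM of Ttr gave 0.105.

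Npas4, a neuron-restricted factor induced by calcium entry, had 9.88 to 31.2 TPM in WT vehicle (median 13.3) and 3.92 to 14.4 TPM in WT IMN (median 6.78). Only WT IMN 1 exceeded the lowest vehicle library, and the means were 15.6 ± 6.72 and 7.4 ± 3.25 TPM. The log2 difference was -1.08 (95% interval -1.62 to -0.55, limma adjusted p = 0.722). The nuclear receptor Nr4a1, also called Nur77, had 39.6 to 105 TPM against 20.8 to 66.7 TPM, with 6 of 8 IMN libraries under the lowest vehicle library and a log2 difference of -1.01 (limma adjusted p = 0.722). Its relative Nr4a3 had 4.44 to 46.2 TPM against 3.03 to 17.7 TPM, with means of 29.2 ± 13.7 and 8.69 ± 4.72 TPM, and again WT vehicle 3 was the low library of its group. The AP-1 gene Fosl2 had 9.15 to 51.6 TPM against 7.06 to 16.4 TPM, and its mean of 10.5 ± 2.93 TPM in WT IMN lay under all vehicle libraries but WT vehicle 3.

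The remaining members at an unadjusted p under 0.05 were Egr2, Egr3, Egr4, Fosb and Klf4. Egr4 had means of 41.8 ± 9.6 and 19.5 ± 13.5 TPM, Egr2 of 7.67 ± 4.46 and 2.65 ± 2.58 TPM, and Fosb of 18.9 ± 7.63 and 9.71 ± 4.89 TPM. In these 3 genes WT IMN 1 held the highest value of its group. Jund had nearly equal means of 78.1 and 77.8 TPM, and Nr4a2, the 1 member with a higher mean, had 38.1 and 38.4 TPM. Junb, with a log2 difference of -2.90 and an interval of -7.44 to 1.64, was listed at 0 in at least 1 library of each group.

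**Figure D2:**
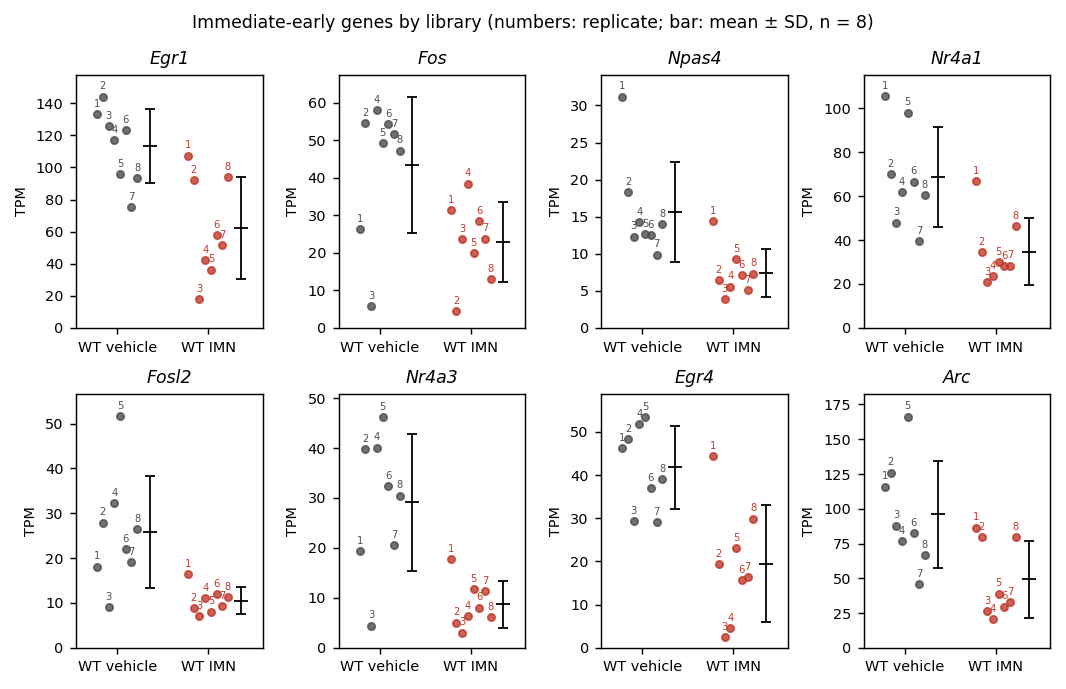
Each panel plots TPM (linear axis from 0) of 1 immediate-early gene in the 8 WT vehicle (grey) and 8 WT IMN (red) libraries, numbered by replicate, with the mean and SD beside them. The IMN mean is lower in every panel, yet the groups overlap in all 8, and IMN 3, 4 and 5 are the lowest for Egr1 at 18.2 to 42.1 TPM.

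The values were also computed with the punch composition taken into account. With covariates for how much striatal, myelin and choroid plexus RNA each library held, 8 of 18 members were lower at an unadjusted p under 0.05. The median difference was -0.60, and 2.74% of all genes were lower at that threshold in that fit. Without the 4 libraries over 1000 TPM of Mbp, 9 of 17 were lower, beside 1.64% of all genes in that fit, and the median was -0.67. Egr1 had a log2 difference of -0.48 there, with an exact permutation p of 0.0593. Without the 4 libraries over 100 TPM of Drd2, 13 of 17 were lower, with a median of -1.07, while 6.71% of all genes were lower at that threshold in that fit. In each of these fits 0 members were higher at that threshold, and adjusted p-values stayed above 0.05.

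Activity-induced effectors, genes that respond to activity but encode no transcription factor of the list above, mostly had lower means too. Of 24 such genes tested, 21 had a lower and 3 a higher mean in WT IMN, with 6 lower and 1 higher at an unadjusted p under 0.05, beside 2.64% lower and 1.95% higher over all genes, and a median of -0.37. Arc, whose protein acts at synapses in AMPA receptor trafficking, had 45.7 to 166 TPM in WT vehicle and 20.6 to 86.4 TPM in WT IMN. Its 5 lowest IMN libraries, WT IMN 3 to 7, lay under all vehicle libraries, and the log2 difference was -1.06 (95% interval -1.76 to -0.37, limma adjusted p = 0.97). The MAP kinase phosphatase genes Dusp5 and Dusp6 had differences of -0.91 and -1.07, the growth-arrest gene Gadd45b -0.78, the activin subunit gene Inhba -0.90 and the synaptic scaffold gene Homer1 -0.87. Bdnf, the neurotrophin gene, had 11.3 ± 9.92 and 5.44 ± 4.27 TPM, with an interval of -2.51 to 1.47 that spans both directions. The 1 member with a higher mean at that threshold was Sgk1, which is also a glucocorticoid target. Without the libraries over 1000 TPM of Mbp, 5 of these 6 genes had an unadjusted limma p above 0.05, with Arc at -0.63, Homer1 at -0.27, Dusp5 at -0.73, Gadd45b at -0.54 and Inhba at -0.20. Dusp6, at -0.73, kept a p under 0.05. With the marker covariates Arc at -0.67, Dusp6 at -0.56, Gadd45b at -0.48 and Homer1 at -0.49 had an unadjusted limma p under 0.05. Dusp5 at -0.35 and Inhba at -0.63 did not.

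Glucocorticoid targets had higher means in WT IMN. Of 16 tested, 15 had a higher and 1 a lower mean, 6 were higher and 0 lower at an unadjusted p under 0.05, and the median difference was 0.26, beside 1.95% higher over all genes. Ddit4, which encodes an inhibitor of mTORC1 signalling that is raised by stress and corticosteroids, was the clearest. On chromosome 10 (59949669 to 59951834, GRCm38), it had 58.8, 59.9, 52.6, 63.3, 58, 54.4, 56.3 and 53 TPM in WT vehicle 1 to 8 and 74.8, 87.2, 144.8, 118, 136.5, 74.7, 75.5 and 79.7 TPM in WT IMN 1 to 8. The groups did not overlap, and the vehicle libraries were unusually tight, with an SD of 3.67 TPM around 57 TPM against 29.5 TPM around 98.8 TPM. Such separation, with IMN higher, held for 4 of 23644 genes (0.0169%), and with IMN lower for 1 (0.00423%), the antisense gene Gm29017. In each direction 1 of the 12870 arrangements of 8 against 8 libraries separates a gene, so that some such genes are expected by chance among 23644. The log2 difference of Ddit4 was 0.74 (95% interval 0.44 to 1.04), with a limma adjusted p of 0.461. Its exact permutation p of 0.000155 is the smallest that 12870 arrangements can give, a value that any gene without overlap has.

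The other 5 genes at that threshold were Sgk1, Plin4, Arrdc2, Nfkbia and Cdkn1a, and they overlapped between groups. Sgk1, a serum- and glucocorticoid-regulated kinase gene, had 323 TPM in WT vehicle 1 and 42.2 to 103 TPM in the other vehicle libraries. In WT IMN it had 314 to 433 TPM in libraries 3, 4 and 5 and 81 to 158 TPM in the rest. Plin4, for a lipid-droplet protein, and Arrdc2, an arrestin-domain gene, were also highest in WT IMN 3, 4 and 5, with 27.4 to 31.5 and 48.9 to 59.7 TPM. The highest vehicle library was WT vehicle 1 for both, with 13.1 and 40.5 TPM. All of these libraries were rich in myelin RNA. Nfkbia, the inhibitor of NF-kappa-B, had means of 34.6 ± 7.24 and 50.6 ± 14.6 TPM and the cell-cycle inhibitor gene Cdkn1a of 26.5 ± 3.2 and 36.1 ± 12.1 TPM. Without the libraries over 1000 TPM of Mbp, 4 of 16 targets were higher at an unadjusted p under 0.05, beside 1.25% of all genes in that fit. The median was 0.13. The 4 were Ddit4, with a log2 difference of 0.46, Sgk1 with 0.77, Plin4 with 1.16 and Arrdc2 with 1.12. Nfkbia, with 0.30, and Cdkn1a, with 0.14, were no longer at that threshold. With the 3 marker scores as covariates Ddit4 had a log2 difference of 0.59, Sgk1 of 0.50, Plin4 of 1.07 and Arrdc2 of 0.62. Nfkbia had 0.46 and Cdkn1a 0.25 in that fit, and of these genes Cdkn1a alone had an unadjusted limma p above 0.05.

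Other targets had smaller differences or wide spread. Fkbp5, the co-chaperone of the glucocorticoid receptor, had 40.1 ± 4.65 and 43 ± 12.2 TPM, with an interval of -0.25 to 0.37. Tsc22d3, the gene of the glucocorticoid-induced leucine zipper, had 111 ± 27.1 and 136.1 ± 73.8 TPM, and both genes spread more widely with IMN than with vehicle. Per1 had 62.3 and 54.3 TPM, the 1 target with a lower mean. The receptors themselves gave 40.7 ± 7.99 and 37.4 ± 7.66 TPM for Nr3c1 and 21 ± 8.79 and 16.4 ± 2.78 TPM for Nr3c2, and Crh, for corticotropin-releasing hormone, gave 5.06 ± 3.83 and 11.7 ± 10.7 TPM. No member of that list of 10 had an unadjusted p under 0.05.

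**Figure D3:**
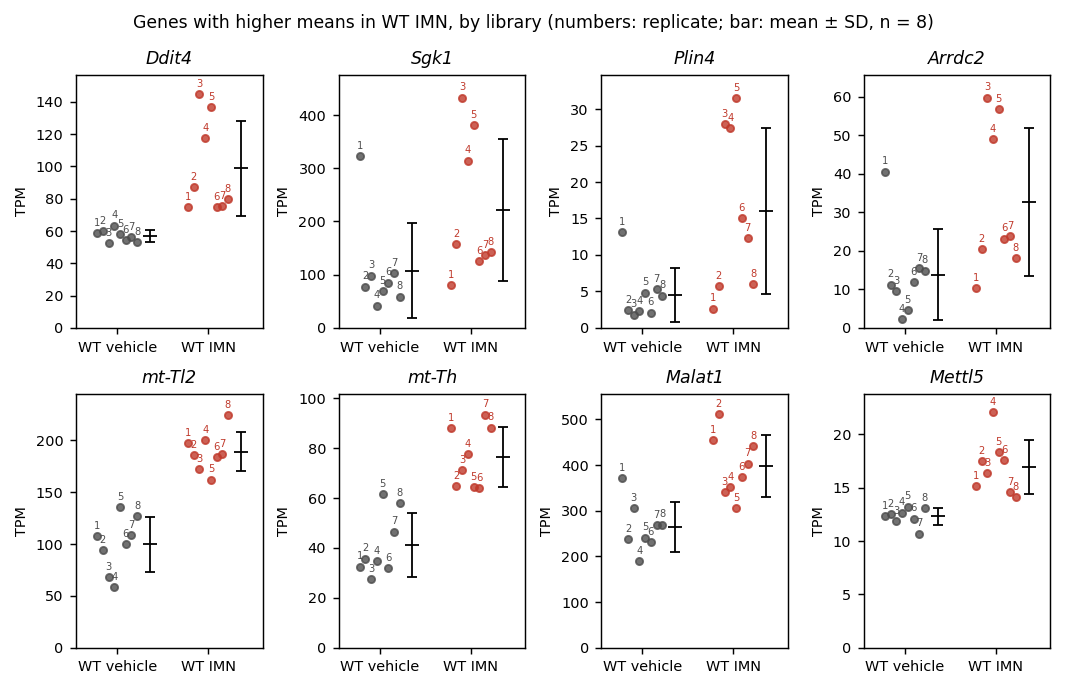
TPM (linear axes from 0) of 8 genes with a higher mean in WT IMN is plotted for each library, numbered by replicate, with mean and SD. Ddit4, mt-Tl2, mt-Th and Mettl5 do not overlap between groups. Ddit4, Sgk1, Plin4 and Arrdc2 are all highest in IMN 3, 4 and 5. Among vehicle libraries, Sgk1, Plin4 and Arrdc2 are highest in vehicle 1.

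The lowest p-values of the whole comparison belonged to mitochondrially encoded tRNA genes, a family taken up after its values were seen. The 3 genes with the lowest p of the family are shown as GENCODE M21 transcripts on GRCm38, 5′ to 3′, with the anticodon in capitals. They read leucine (CUN codons) for mt-Tl2 at chrM:11671-11741, histidine for mt-Th at chrM:11546-11612 and glycine for mt-Tg at chrM:9391-9458, all on the plus strand.
mt-Tl2: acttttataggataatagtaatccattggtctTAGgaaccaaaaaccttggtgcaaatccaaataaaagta
mt-Th: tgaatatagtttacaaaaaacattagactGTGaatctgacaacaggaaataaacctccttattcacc
mt-Tg: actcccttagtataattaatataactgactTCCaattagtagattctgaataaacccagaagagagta
The mt-Tl2 transcript had 108, 94.1, 68, 58.6, 135.6, 99.6, 109 and 126.9 TPM in WT vehicle 1 to 8 and 197, 186, 172, 200, 162, 184, 187 and 224 TPM in WT IMN 1 to 8. The groups did not overlap and the log2 difference was 0.96 (95% interval 0.65 to 1.28, limma adjusted p = 0.168). Without WT vehicle 5 the 3 genes had an adjusted p of 0.0326, the only 1 of 16 fits leaving out a library in which any gene passed 0.05. Likewise mt-Th did not overlap, at 27.6 to 61.6 against 63.9 to 93.4 TPM, and mt-Tg overlapped by 1 library, at 25.7 to 54.2 against 49.4 to 79.3 TPM.

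Of the 22 mitochondrial tRNA genes, 20 had a higher mean in WT IMN, and 8 were higher and 0 lower at an unadjusted p under 0.05, beside 1.95% higher over all genes, with a median of 0.17. The size differed between members. The adjoining genes mt-Th, mt-Ts2 and mt-Tl2, at 11546 to 11741, had 0.94, 0.59 and 0.96, and mt-Tr had 0.59. Abundant members such as mt-Te, mt-Ts1 and mt-Tc, all on the minus strand, lay between -0.05 and 0.06. The 8 genes at that threshold were all on the plus strand, where others, such as mt-Ti and mt-Tw, were not at it. Mitochondrial mRNAs, from the same polycistronic transcripts, had differences of -0.01 to 0.16 with 0 of 13 at an unadjusted p under 0.05. Malat1, a long noncoding RNA kept in the nucleus, had 190 to 372 TPM in WT vehicle and 305 to 513 TPM in WT IMN, a difference of 0.60 (limma adjusted p = 0.627).

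By the lowest unadjusted p among multi-exon protein-coding genes with at least 1 TPM, 10 genes were taken in each direction. Beside Ddit4, those with higher means were Samd5, Mettl5, Nrg1, Atp5mpl, Gtf3c6, Galnt15, Cenpq, Tmem33 and Sync. Mettl5, for a methyltransferase of ribosomal RNA, had 10.7 to 13.2 TPM in WT vehicle and 14.1 to 22.1 TPM in WT IMN without overlap, a difference of 0.45 (95% interval 0.25 to 0.65, limma adjusted p = 0.579). Nrg1, the ErbB ligand neuregulin, had means of 5.62 ± 1.54 and 9.81 ± 2.18 TPM, and Samd5 of 7.87 ± 1.8 and 13.2 ± 2.61 TPM. The ATP synthase subunit gene Atp5mpl had 222 ± 27.8 and 284 ± 25.9 TPM.

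Those with lower means, beside Fosl2, Npas4, Nr4a1 and Nr4a3, were Sox18, Adamts2, Zglp1, Maf, Mxd3 and Rbm12b2. Sox18, a transcription factor of blood and lymph vessel endothelium, had 6.36 to 14.1 TPM in WT vehicle and 4.01 to 6.94 TPM in WT IMN, with 6 of 8 IMN libraries under the lowest vehicle library and a difference of -0.78 (limma adjusted p = 0.579). The endothelial markers Cldn5 and Pecam1 had differences of -0.19 and 0.08 with intervals that include 0. Adamts2, a procollagen peptidase gene, had means of 8.22 ± 3.77 and 3.09 ± 1.2 TPM, and Maf, a leucine-zipper factor, 8.17 ± 1.95 and 5.13 ± 0.566 TPM. In Adamts2, Zglp1, Maf and Rbm12b2, 7 of 8 IMN libraries lay under the lowest vehicle library.

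The largest differences among genes at an unadjusted p under 0.01 came from genes listed at 0 in some libraries. Pter had 0.347 to 96.2 TPM in WT vehicle and 0 to 18.8 TPM in WT IMN, and no vehicle library lay between 6.82 and 50.1 TPM. The small nuclear RNA gene Gm22215 and the pseudogene Gm8613 had lower means, at 2.4 and 0.553 TPM and at 2.42 and 0.759 TPM. Gm4353, Mir32 and Mir8109 had higher means, with Gm4353 at 0 to 6.67 TPM in WT vehicle and 5.62 to 6.92 TPM in WT IMN. Short and repeated genes of this kind share reads with other loci, and their values are uncertain.

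The transporters that IMN blocks were at or near 0 in the table. Slc6a4, the serotonin transporter, was listed at 0 in all 16 libraries, and Slc6a2, the noradrenaline transporter, had at most 0.108 TPM. A listed 0 need not mean that a gene is not expressed, as Junb was also listed at 0 in some libraries. Of 14 receptors that IMN binds, 2 were higher and 0 lower at an unadjusted p under 0.05, beside 1.95% higher over all genes, with a median of 0.17. Adra1b, an alpha-1 adrenergic receptor gene, had means of 4.68 ± 3.38 and 8.34 ± 3.13 TPM, a difference of 1.04, and the muscarinic receptor gene Chrm2 6.94 ± 2.84 and 11.6 ± 4.85 TPM, a difference of 0.75. For both, WT IMN 3 and 4, which were rich in myelin RNA, were among the 3 highest IMN libraries. Without the libraries over 1000 TPM of Mbp, Adra1b was at 0.80 and Chrm2 at 0.27, neither with an unadjusted limma p under 0.05. With the marker covariates they were at 1.19 and 0.56, both with an unadjusted limma p under 0.05. Chrm1 had 64.9 ± 19.8 and 42.3 ± 28.4 TPM and was lowest, at 7.85 and 5.84 TPM, in those same punches.

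Serotonin receptors showed no common direction. Of 12, 1 was lower and 0 higher at an unadjusted p under 0.05, beside 2.64% lower and 1.95% higher over all genes. It was the low-level gene Htr5b, with 2.23 ± 2.5 and 0.435 ± 0.566 TPM. Htr2c, the most abundant, had 76.3 ± 24.5 and 60 ± 28.4 TPM with an interval of -1.13 to 0.24, Htr2a 13.8 ± 6.56 and 15.4 ± 12.7 TPM, and Htr1a 8.8 ± 6.07 and 8.59 ± 4.11 TPM. The monoamine oxidase genes Maoa and Maob, whose enzymes break down monoamines, had log2 differences of 0.19 and -0.05. Both intervals lay within -0.44 and 0.61.

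In signalling lists, Creb1, the cAMP-responsive factor, had means of 21.2 ± 4.19 and 15.5 ± 2.86 TPM, with all 8 IMN libraries under the vehicle median and 5 under the lowest vehicle library. Its difference was -0.45 (95% interval -0.74 to -0.16, limma adjusted p = 0.97). It was the 1 of 30 cAMP and CREB genes at an unadjusted p under 0.05, beside 2.64% lower and 1.95% higher over all genes. Without the libraries over 1000 TPM of Mbp Creb1 was at -0.31, no longer at that threshold, and with the marker covariates it was at -0.42, still at it. Among 18 clock genes Per2 and Bhlhe40 were lower at an unadjusted p under 0.05, with -0.42 and -0.59, beside 2.64% lower over all genes. Both also respond to neuronal activity. Per2 was at -0.09 with the marker covariates and at -0.23 without the libraries over 1000 TPM of Mbp, with an unadjusted limma p above 0.05 in both. Bhlhe40 was at -0.24 and -0.61. Of 21 genes of the unfolded protein response Xbp1 and Creld2 were lower at that threshold, with -0.27 and -0.41, beside the same 2.64% over all genes. The median differences of these lists lay between -0.05 and -0.03.

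Several lists gave narrow intervals. All 12 members of the BRD1 complex list, 23 of 24 cholesterol synthesis genes, 20 of 21 unfolded protein response genes and 18 of 20 lysosomal genes had a 95% interval within -1 and 1. Their members at an unadjusted p under 0.05 were 0, 1, 2 and 0, beside 1.95% higher and 2.64% lower over all genes. Lists of GABA-A and glutamate receptor subunits had 0 of 14 and 0 of 11 members at that threshold. A list of cholinergic neuron genes was chosen after seeing the values. It had 5 of 6 members higher at an unadjusted p under 0.05, beside 1.95% higher over all genes. Its member Chat, the acetylcholine-synthesizing enzyme, was at 0 to 18.6 and 0 to 50.3 TPM.

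**Figure D4:**
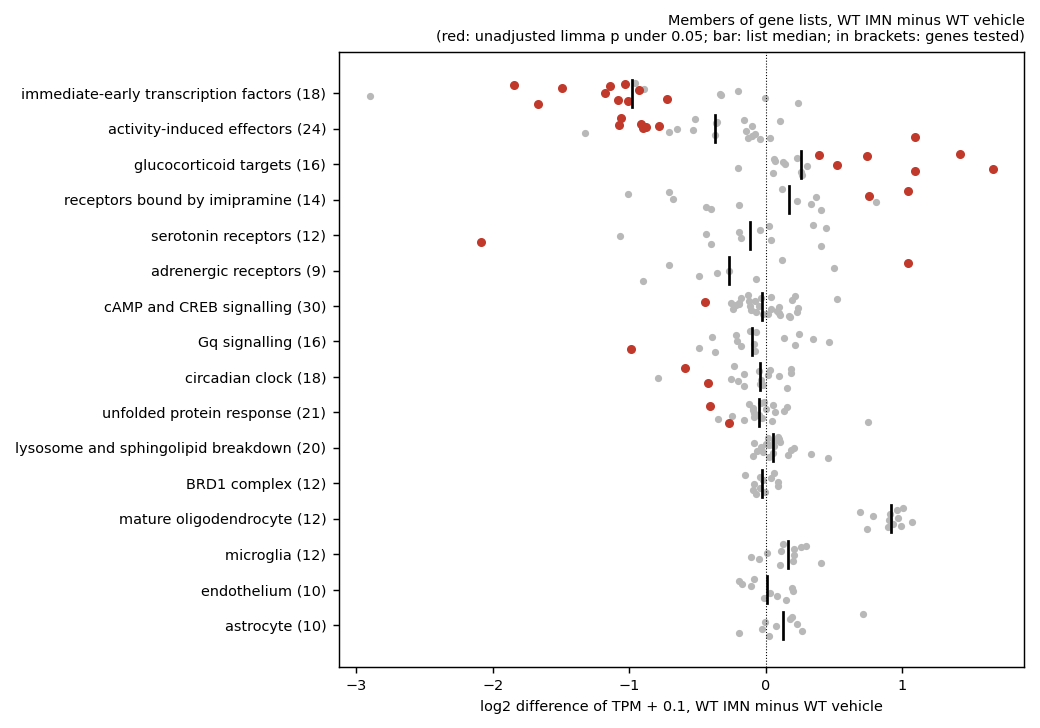
Each point is the log2 difference of TPM + 0.1, WT IMN minus WT vehicle, of 1 member of a gene list, with red for an unadjusted limma p under 0.05 and a bar at the list median. The median lies at -0.98 for the immediate-early transcription factors, at 0.26 for glucocorticoid targets and near 0 for the BRD1 complex.

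The same drug in Brd1+/- mice was measured in 16 other libraries, so that no animal was shared. There 188 of 24225 genes (0.776%) had a limma adjusted p under 0.05, of which 4 had a higher and 184 a lower mean with IMN and 13 were multi-exon protein-coding genes. At an unadjusted p under 0.05, 1.88% were higher and 7.41% lower. The interaction, Brd1+/- minus WT, had an adjusted p under 0.05 for 143 of 26673 genes (0.536%), of which 2 were multi-exon protein-coding. In fits of multi-exon protein-coding genes alone both counts were 0.

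For the immediate-early factors the Brd1+/- comparison gave values near 0. The median of the same 18 genes was -0.05, with 1 lower (Klf4) and 0 higher at an unadjusted p under 0.05. Egr1 had 68.8 ± 19.5 TPM with vehicle and 62.1 ± 15.4 TPM with IMN, a difference of -0.13 (95% interval -0.55 to 0.30). The interaction had a higher value in Brd1+/- mice at an unadjusted p under 0.05 for 9 of the 18 (2.71% of all genes higher and 6.53% lower) and an adjusted p under 0.05 for 0, so that a difference between genotypes is not shown for any of them. Nr4a1 had the lowest interaction p of the list, with a limma adjusted p of 0.277.

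Ddit4 had 75.6 ± 22.6 and 93.3 ± 22.2 TPM in Brd1+/- mice, a difference of 0.32 (95% interval -0.03 to 0.68) in the same direction as in WT, and the interaction was -0.42 (limma adjusted p = 0.587). Of the 6 genes with lower means outside the activity lists, Sox18 had -0.78 in WT and -0.81 in Brd1+/-, where it had 9.62 and 5.56 TPM. The endothelium list moved with it there, with 10 of 10 members lower and a median of -0.36. Of these, 5 were at an unadjusted p under 0.05, beside 7.41% lower over all genes in Brd1+/- mice. The part of this list in the Sox18 value was not tested. Rbm12b2 had -0.32 and -0.23. Adamts2 had 7.88 and 8.56 TPM in Brd1+/- mice, a difference of 0.18, and Zglp1, Maf and Mxd3 had 0.36, -0.11 and -0.18 there. The WT and Brd1+/- comparisons share no library, but in both the sample codes of vehicle libraries lay below those of IMN libraries. Whatever followed the codes therefore cannot be told apart from the drug in either. Neither genotype gave an adjusted p under 0.05 for Sox18 or Rbm12b2.

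The mitochondrial tRNA genes mt-Tl2, mt-Th and mt-Tg, and Malat1, had differences of opposite sign in the genotypes. Of the 22 tRNA genes, 6 had an interaction adjusted p under 0.05 in limma, and for mt-Tp among them the interaction was positive, at 0.84. In Brd1+/- mice mt-Tl2 had 203 ± 26.2 TPM with vehicle and 68.7 ± 17.5 TPM with IMN, a difference of -1.60, and the interaction of -2.56 had a limma adjusted p of 7.55e-09. Likewise mt-Th had an interaction of -2.84 and Malat1, at 797 and 253 TPM in Brd1+/- mice, of -2.26. Mettl5 did so too, with 0.45 in WT, -0.25 in Brd1+/- and an interaction adjusted p of 0.00491. The abundant structural RNA gene Rn7s1 had 92.9 ± 20.4 TPM in Brd1+/- vehicle against 2.92 ± 1.2, 5.17 ± 2.99 and 5.96 ± 2.35 TPM in WT vehicle, WT IMN and Brd1+/- IMN. All 12 oligodendrocyte genes had lower means with IMN at an unadjusted p under 0.05 in Brd1+/- mice, beside 7.41% lower over all genes there. Their median was -1.03, where WT had 0.92.

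**Figure D5:**
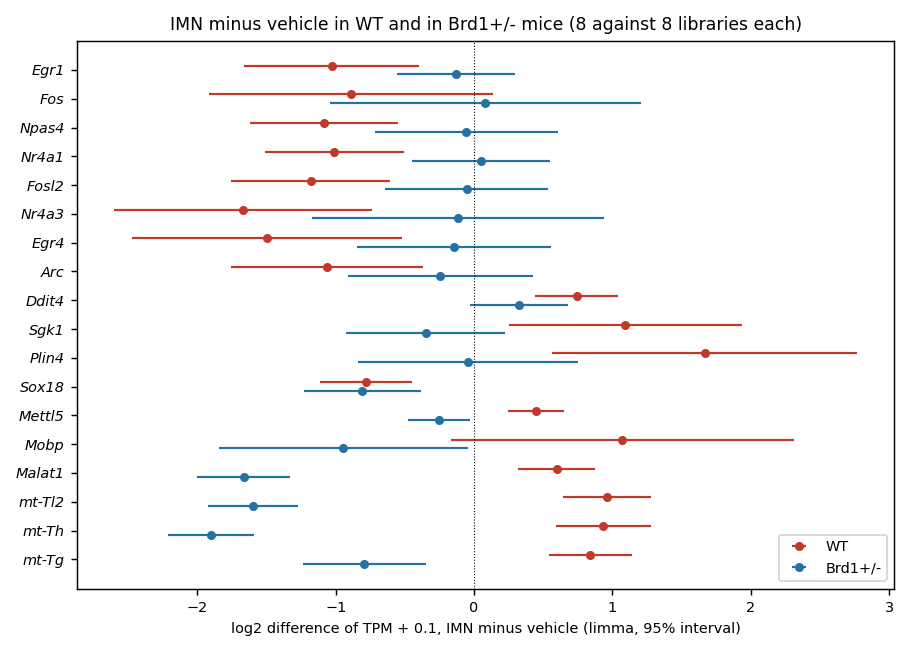
Points give the log2 difference of TPM + 0.1, IMN minus vehicle, for 18 genes in WT (red) and Brd1+/- (blue) mice, each from 8 against 8 libraries, with limma 95% intervals. The 8 activity genes from Egr1 to Arc lie between -1.67 (Nr4a3) and -0.89 (Fos) in WT, Sox18 is near -0.8 in both, and Malat1 and the 3 tRNA genes have opposite signs.

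Set beside all 6 groups, WT vehicle held the highest mean of Egr1 and the lowest of Ddit4. Egr1 had 113 TPM there and 53.3 to 70 TPM in the 5 other groups, and Ddit4 had 57 TPM there and 75.6 to 101 TPM in the others. Npas4 had 15.6 TPM in WT vehicle and 7.4 to 13.1 TPM elsewhere. The WT FLX values, 53.3 TPM for Egr1 and 93.6 TPM for Ddit4, are set against the same vehicle libraries as those of WT IMN and are given only as levels. The numeric codes that the labels give the vehicle libraries all lay below those of the IMN libraries, and whatever followed the codes cannot be told apart from the drug.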

How the data were processed

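RNA was extracted from right amygdala punches of single mice, as the sample labels and methods give it; the series' design text names striatal and cortical regions instead, and the labels were followed. For these libraries the authors trimmed reads with Trimmomatic, aligned them with HISAT2 2.1.0 and estimated transcript abundance with StringTie 1.3.4, the last 2 versions per the submitters' processing notes. The deposited table gives TPM per gene as computed by the authors. TPM keeps no read depth, so depth per library is unknown and no counting interval can be given. All 48 columns were mapped to samples by name (0 columns left unmapped), and 16 were used for the WT comparison.

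Values were tested as log2(TPM + 0.1), which understates the change of low genes, for genes with at least 0.1 TPM in at least 8 libraries. The test was limma 3.58.1 in R 4.3.3 with a mean-variance trend, two-sided, with Benjamini-Hochberg adjustment over all genes tested and no replicate block. Single genes were also tested by an exact two-sided permutation over the 16 libraries. The script was tested on simulated data. Gene positions are from GENCODE M21 on GRCm38 and promoters from RefSeq on GRCm38.p6.

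Named genes were Fos, Egr1 and Brd1, the 10 multi-exon protein-coding genes per direction with the lowest unadjusted p, the 3 genes per direction with the largest difference at an unadjusted p under 0.01 (in both cases averaging 1 TPM or more where higher), and key or nominally significant members of 39 gene lists. Members and lists were chosen with earlier results of these data known. The lists of mitochondrial tRNA and cholinergic neuron genes, and the fits leaving out libraries over 1000 TPM of Mbp, 100 TPM of Drd2 or 1000 TPM of Ttr, were chosen after seeing the data. Alternatives were other pseudocounts, filters, scalings and fits, the replicate number as a block, a sample-code term, marker scores as covariates, and leaving out each library. Each library is labelled as a separate sample, and p-values measure the spread between these samples. A few list members are not reported here.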

Additional observations from a re-analysis of the deposited data

Results flagged for a closer look

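Among 156 groups of 8 libraries examined for a single library far from the others, 23 (14.7%) had one. The rule gives about 1 in 20 for independent, normally distributed values. It was applied here to TPM not on a log scale, of named genes measured in the same libraries, so that this rate need not hold. Of these, WT vehicle 1, the punch with choroid plexus and myelin RNA, was the far library for Arrdc2 (40.5 TPM), Creld2 (39.98 TPM), Meig1 (21.8 TPM), Mir8109 (1.22 TPM), Npas4 (31.2 TPM), Plin4 (13.1 TPM), Sgk1 (323 TPM) and Tekt1 (34.0 TPM). The hypothalamic peptide genes Hcrt and Pmch stood out in WT IMN 4 at 3878 and 5702 TPM, and Pmch also in WT vehicle 7 at 19.6 TPM. WT IMN 1 was far from its group for Egr2 (8.43 TPM), Gm22215 (2.85 TPM) and Lmo3 (197 TPM).

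Single libraries accounted for the others. In WT vehicle these were Adra1b (12.2 TPM), Mvd (32.2 TPM) and Sync (2.21 TPM) in library 2, Nefm in library 3 (197 TPM), Htr5b (8.09 TPM) and mt-Tt (147 TPM) in library 5, Gm8613 in library 6 (0 TPM) and Lhx8 in library 7 (15.7 TPM). In WT IMN it was Adamts2 in library 6 (5.74 TPM).

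The difference between IMN and vehicle itself differed between genotypes, by the interaction term of limma at an adjusted p under 0.05, for 10 named genes. As Brd1+/- minus WT on the log2 scale, it was -2.26 for Malat1, -0.70 for Mettl5, -1.63 for mt-Tg, -2.84 for mt-Th, -2.56 for mt-Tl2, 0.84 for mt-Tp, -1.29 for mt-Tr, -1.46 for mt-Ts2, -4.68 for Rn7s1 and -4.71 for Rn7s2.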

How the results depend on the processing

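No named gene changed sign under an alternative where it was called. Of the values of named genes under all alternatives, 4790 kept their side of the unadjusted threshold of 0.05 (180 of them, from genes not past it, with the other sign), 288 no longer passed it and 86 newly passed it. Leaving out each library in turn gave 0 to 3 genes with an adjusted p under 0.05 in WT (3 without WT vehicle 5), 128 to 329 with an unadjusted p under 0.01 (294 without WT vehicle 3 and 329 without WT IMN 1) and 745 to 1633 under 0.05. It gave log2 differences of -1.27 to -0.58 for Fos, -1.17 to -0.80 for Egr1 and 0.0017 to 0.09 for Brd1, and 89 to 174 adjusted calls in Brd1+/- mice and 112 to 151 for the interaction. Without the libraries over 1000 TPM of Mbp, 106 WT genes passed 0.01 and 645 passed 0.05, and Egr1 was at -0.48. Without those over 100 TPM of Drd2 the counts were 722 and 3349 and Fos was at -0.95, and without those over 1000 TPM of Ttr 598 and 2400. Multi-exon protein-coding genes alone gave 90 and 614 in WT, with fewer genes tested, and 0 adjusted calls in Brd1+/- mice and for the interaction. Against 188 adjusted calls in Brd1+/- mice, no filter gave 294, a minimum of 1 TPM 23, quantile normalization 90 and marker scores 68. Against 143 for the interaction, a pseudocount of 0.01 gave 86, a minimum of 1 TPM 15 and quantile normalization 63. For these the cause was not tested.

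The replicate numbers did not pair the samples: deviations of same-numbered WT libraries correlated at -0.18 to 0.21, and 1 of 8 matched its own number best. With the replicate number as a block, WT had 0 adjusted calls, 178 genes under 0.01 and 985 under 0.05, Brd1+/- mice 87 adjusted calls and the interaction 88. TPM gives no depth, so differences at low levels are limited by an unknown number of reads.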
